A study of Mus musculus with 6 samples.

Results

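The 10 genes described here are 3 ligands of the bone morphogenetic protein (BMP) family (Gdf6, Bmp2 and Bmp4), the antagonist Grem1, the receptors Bmpr1a, Bmpr2 and Eng, and the targets Id1, Id2 and Id3. They were chosen by symbol, with earlier results of the same data known. Of the 10 genes, 9 were found among the 12389 genes with a value, zeros included, in every library, and Bmp2 is not analysed here. The lowest maximum over libraries among the 12389 was an estimated 200.5 reads, so a gene can be present through its highest library alone. Gdf6 was listed with its large difference between the genotypes already known, so its values describe that difference and support nothing.

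Messenger RNA was sequenced from 6 cultures of primary vascular smooth muscle cells, which give arteries their tone, grown out of explants of mouse thoracic aorta. The 3 wild-type (WT) cultures and the 3 knockout (KO) cultures were kept in the same serum-containing medium, received no treatment and were collected at or before the sixth passage. The KO cultures came from mice that lack LRRC8A, without which volume-regulated anion channels do not form, in smooth muscle only. The Cre driver, strain, sex and age of the mice are not stated in these sources, and the genotype field of all 6 samples reads wild type, so the titles set the groups. The submitters call the cultures independent biological replicates.

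BMPs are secreted dimers that bind a pair of type I and type II serine/threonine kinase receptors. The receptors phosphorylate the transcription factors SMAD1, SMAD5 and SMAD9, which enter the nucleus with SMAD4 and switch on the ID genes and inhibitory SMADs. Secreted antagonists such as gremlin hold the ligands away from their receptors. In arteries the pathway is known for its part in smooth muscle differentiation and vascular calcification, and inherited faults of BMPR2 and endoglin underlie pulmonary arterial hypertension and hereditary haemorrhagic telangiectasia.

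Values are scaled reads, that is, the authors' read counts after a division that differs by library. Estimated depth ran from 31.0 M to 47.9 M reads per library. In WT replicates 1 to 3 the targeted gene Lrrc8a stood at 2578, 2194 and 1221 scaled reads. In the KO replicates it stood at 868, 672 and 506, so KO lay below WT throughout. Its limma log2 fold change, KO over WT, was -1.51 (SE 0.34), with a p adjusted over all genes of 0.999. The authors' deposited table gives Lrrc8a a false discovery rate of 0.0196. An adjusted p of 0.999 in limma is therefore no sign that a gene was unchanged. The contractile genes Acta2 and Tagln were highest in replicate 3 of either genotype. The summed level of the 7 measured smooth muscle markers of 9 listed was 205300 in WT replicate 3 and 106100 in KO replicate 3, against 16630 to 32580 in the other 4 libraries. Acta2, smooth muscle actin, ranged from 10651 to 130984 in WT and from 18724 to 59317 in KO, Tagln (transgelin) from 2240 to 58393 and from 8327 to 40463, and Smtn (smoothelin) from 2474 to 3049 and from 2191 to 2635. Of the 7 markers 5 had a log2 fold change below 0 and the median was -0.78, with none past an adjusted p of 0.05. Myh11, smooth muscle myosin heavy chain, named after its values were seen, had 90.1, 152 and 1656 scaled reads in WT and 41.7, 20.8 and 96.8 in KO. It was lower in KO in each pair (log2 differences of -1.07, -2.75 and -4.07), although the groups overlapped, and KO replicate 3 was not high for it beside WT. Same-numbered libraries deviated from their group means together, but only weakly in pair 2. Their deviations correlated at 0.433, 0.151 and 0.389 in pairs 1, 2 and 3. Differences within each numbered pair are therefore given beside the group values.

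Markers of other cell types differed between the cultures. Summed levels of the 6 measured fibroblast markers of 7 listed, among them Dcn, Col14a1 and Dpt, ran from 18120 to 65470 in WT and from 21040 to 58540 in KO. The 5 measured mesothelial and epithelial markers of 8, with Upk3b, Msln and Krt19 the highest, summed to between 5562 and 9936 in WT and between 1098 and 6769 in KO. Those of the 4 measured leukocyte markers of 7 (Cd14, Csf1r and Lyz2 the highest) summed to between 1995 and 2616 in WT and between 834 and 1676 in KO. Of 9 endothelial markers only Kdr and Egfl7 were measured, with sums of 94.9 to 461 in WT and 116 to 464 in KO, and Pecam1, Cdh5, Tek and Vwf are not analysed here. Of 8 chondrocyte and osteoblast markers Sox9 and Alpl were measured, with sums of 573 to 1304 in WT and 1138 to 1215 in KO. Most of each sum was Sox9, and the 2 genes differed in direction. Sox9 had a log2 fold change of 0.61 (SE 0.38). Alpl had 121, 17.5 and 161 scaled reads in WT and 9.63, 19.6 and 5.69 in KO. Its log2 fold change was -2.55 (SE 1.42), with an adjusted p of 0.999 in limma, and the groups overlapped. In RNA from whole cultures, fewer cells of a type and less RNA per cell cannot be told apart.

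Among the ligands, the members Gdf6 and Bmp4 were lower in KO on average, Gdf6 in every library and Bmp4 in comparison with WT replicates 1 and 2. Gdf6, growth differentiation factor 6 (also called BMP13, a ligand best known from joint and eye development), stood at 2721, 1772 and 732 scaled reads in WT cultures 1, 2 and 3. The KO cultures 1, 2 and 3 gave 280.2, 39.3 and 44.8. Every KO library lay below every WT library, and KO replicate 1 was 7.13 times KO replicate 2. The lowest KO values correspond to an estimated 34.0 reads in replicate 2 and 63.0 in replicate 3. Gdf6 lies on GRCm38 chromosome 4 from 9844372 to 9862345, on the plus strand.

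Gdf6 averaged 1741 ± 995 (SD, n = 3) in WT against 121 ± 138 (SD, n = 3) in KO, a ratio of means of 14.3 in favour of WT. The limma log2 fold change on log2(value + 2), KO over WT, was -4.22 (SE 0.85), and its p adjusted over all genes was 0.999. Within pairs 1, 2 and 3 the log2 differences were -3.27, -5.42 and -3.97. The authors' deposited table lists Gdf6 at -3.84 (log2 ratio) with a false discovery rate (FDR) of 0.000718. Among the 9 members 1, Gdf6, had an FDR under 0.05 by the authors' deposited table, as did 0.525% of all genes.

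**Figure D1:**
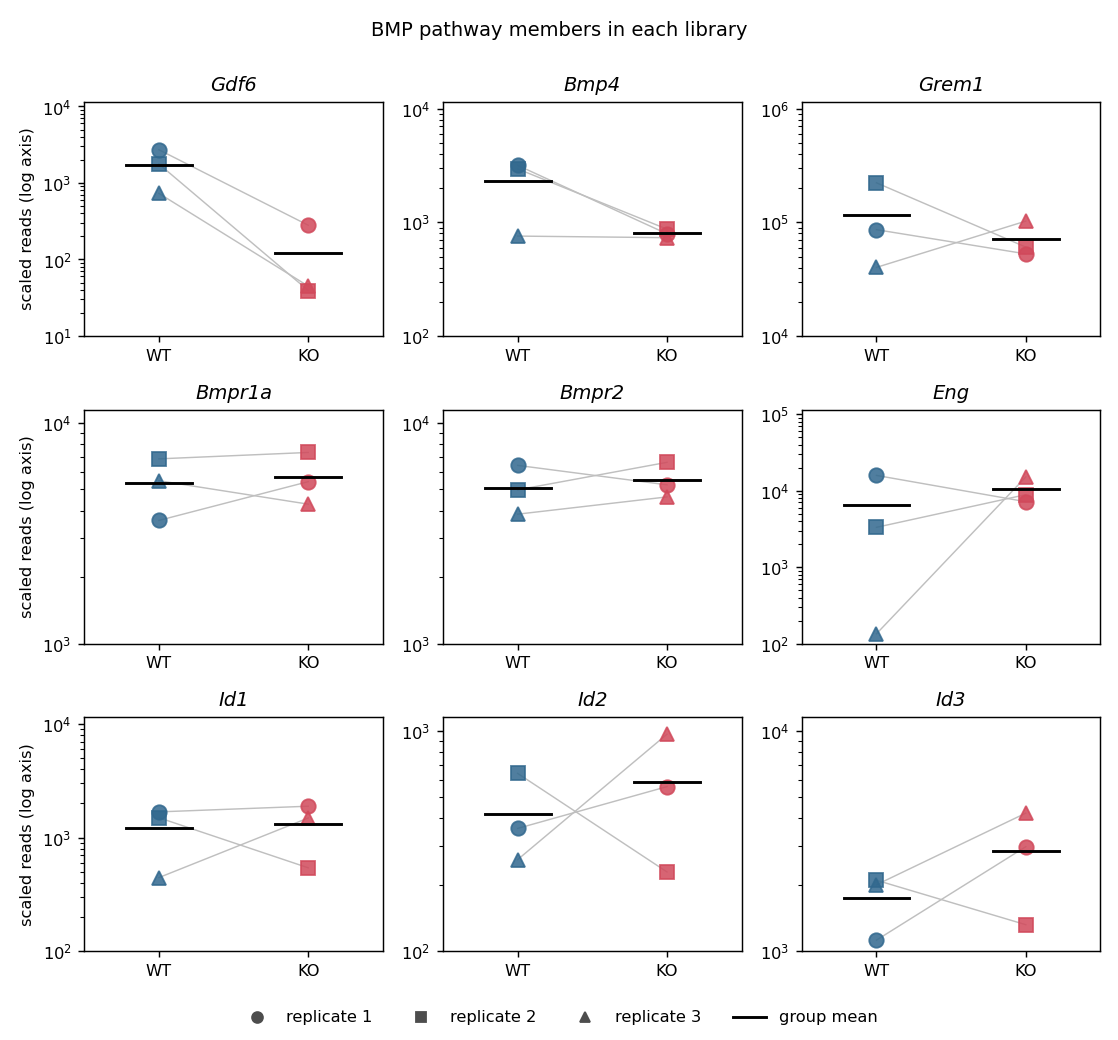
Scaled reads of the 9 measured members in each library, on log axes that differ between panels. Marker shapes are replicates 1 to 3, grey lines join same-numbered WT and KO libraries, and black bars are group means. Gdf6 is the only member whose KO libraries all lie below its WT libraries, and Eng spans from 134 to 15818 within WT.

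Bmp4, a ligand that induces smooth muscle differentiation and bone formation in many settings, stood at 3176, 2955 and 757 scaled reads in WT cultures 1, 2 and 3. The KO cultures gave 793, 871 and 733. The 3 KO libraries were close to each other, and WT replicate 3 lay among them while the other WT libraries lay far above. Means were 2296 ± 1337 for WT and 799 ± 69.5 for KO (SD, n = 3), with a limma log2 fold change of -1.27 (SE 0.54) and an adjusted p of 0.999. Pair differences were -2.00, -1.76 and -0.05. Without WT replicate 3 the log2 fold change was -1.94 at an adjusted p of 0.235, and without both replicate 3 libraries it was -1.88. For Bmp4 the authors' deposited table gives -1.52 (log2 ratio, FDR 0.254).

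Bmp4 lies on GRCm38 chromosome 14 from 46383520 to 46390669. The stretch of 250 bases before its RefSeq start is shown, and whether this stretch regulates the gene in these cultures was not tested. It covers chr14:46390670-46390919 of GRCm38.p6 on the minus strand and holds no annotated exon. Capitals mark GTCT or its complement AGAC, the short SMAD-binding letters, which occur in 82.9% of the 32851 RefSeq promoter windows of this length.
Bmp4: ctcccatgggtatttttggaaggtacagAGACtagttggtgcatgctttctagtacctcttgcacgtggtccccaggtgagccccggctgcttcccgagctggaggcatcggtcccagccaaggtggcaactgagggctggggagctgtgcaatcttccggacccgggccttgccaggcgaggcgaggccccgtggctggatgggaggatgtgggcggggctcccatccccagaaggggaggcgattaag
The window has 1 such match, whose first base is at -222 relative to the start. It has no GGCGCC, the GC-rich letters bound by BMP-activated SMADs.

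Among the other ligands listed, 3 of 14 were measured and none passed. Bmp6, a ligand that also regulates hepcidin, had 959, 85.2 and 243 scaled reads in WT and 149.8, 31.2 and 178 in KO (log2 fold change -1.50, SE 1.02). The KO value was the lower one in each pair (log2 differences of -2.66, -1.39 and -0.44), and the groups overlapped. Gdf10, known as BMP3B, had a log2 fold change of 2.04 (SE 1.47) with 539 scaled reads in KO replicate 3 and 8.30 to 88.7 in the other 5 libraries. Gdf11, a ligand that signals mainly through activin receptors, had 0.14 (SE 0.37).

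Grem1, which encodes gremlin 1, a secreted antagonist of BMP2, BMP4 and BMP7, was by far the most abundant member per length. It lies on GRCm38 chromosome 2 from 113746164 to 113758646, on the minus strand. Cultures 1, 2 and 3 gave 86206.5, 222886 and 40148 scaled reads in WT, and 52811, 60570.0 and 102575 in KO. The groups overlapped, with WT holding both the highest and the lowest library. In WT replicate 2 it ranked 4 among all genes by scaled reads, with 0.615% of the total, and in WT replicate 3 it ranked 83 with 0.112%.

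Grem1 averaged 116413 ± 95040 in WT against 71985 ± 26774 in KO (SD, n = 3), with a limma log2 fold change of -0.41 (SE 0.63) and an adjusted p of 0.999. Pair differences were -0.71, -1.88 and 1.35. Without WT replicate 2 the sign turned, to 0.23. Per kilobase of annotated exon, the level of Grem1 was 14.7, 40.9 and 28.7 times that of Bmp4 in WT replicates 1 to 3 and 36.1, 37.7 and 75.8 times in KO replicates 1 to 3. Against the sum of Bmp4 and Gdf6 per kilobase it was 9.52, 29.6 and 17.8 times in WT and 29.5, 36.6 and 73.0 times in KO. The highest WT ratio, 29.6 in replicate 2, and the lowest KO ratio, 29.5 in replicate 1, nearly coincide, so the groups overlap on this measure too.

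The window before the start of Grem1 is shown for the member with the highest level. It covers chr2:113758649-113758898 of GRCm38.p6 on the minus strand, outside annotated exons, with GGCGCC and GTCT or AGAC in capitals.
Grem1: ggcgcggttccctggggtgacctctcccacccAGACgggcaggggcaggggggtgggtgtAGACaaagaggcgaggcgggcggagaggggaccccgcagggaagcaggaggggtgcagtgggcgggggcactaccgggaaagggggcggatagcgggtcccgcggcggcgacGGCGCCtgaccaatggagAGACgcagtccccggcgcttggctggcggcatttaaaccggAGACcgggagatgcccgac
It holds GGCGCC with its first base at -78 and 4 matches of GTCT or AGAC, at -218, -190, -60 and -19.

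**Figure D2:**
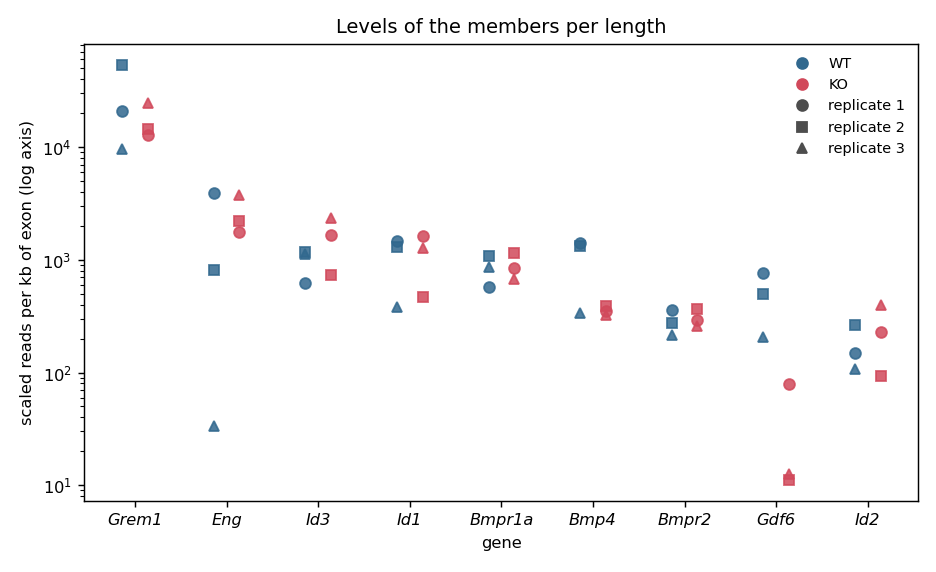
Scaled reads per kilobase of annotated exon for the 9 measured members in each library, on a log axis, ordered by mean. Blue is WT, red is KO and shapes are replicates. Grem1 is highest in all 6 libraries, between 9679 and 53730, and Gdf6 is lowest in each KO library, between 11.1 and 79.3, while Eng in WT replicate 3 is at 33.2.

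Among the 11 measured genes of 18 listed as antagonists and binding proteins, 7 had a log2 fold change below 0. The median was -0.04, with none past an adjusted p of 0.05. Bmper, an extracellular modulator of BMP4 made in vessels, had 2514, 4186 and 3106 scaled reads in WT and 582, 2404 and 1008 in KO. Its KO libraries all lay below its WT libraries, narrowly in the case of KO replicate 2, with a log2 fold change of -1.51 (SE 0.51). Pair differences were -2.11, -0.80 and -1.62. Fstl1, follistatin-like 1, averaged 33776 ± 4578 in WT against 46730 ± 15426 in KO (SD, n = 3). Fst, follistatin, had a log2 fold change of -0.89 (SE 1.06) that turned to 0.09 without KO replicate 3. Nrep, counted in this list though not an established BMP antagonist, had one of 1.44 (SE 1.44). None of these 4 passed in limma, at an adjusted p of 0.999 each. Before adjustment over all genes the limma p of Bmper was 0.0214.

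The signalling receptors Bmpr1a and Bmpr2 differed little between the groups. Bmpr1a encodes the type I receptor ALK3 and lies on chromosome 14 from 34410734 to 34503341. Its scaled reads in cultures 1, 2 and 3 were 3615, 6872 and 5472 for WT and 5418, 7347 and 4284 for KO. For Bmpr2, the type II receptor gene on chromosome 1 (59763400 to 59879014), they were 6420.2, 4975 and 3860 for WT and 5241, 6628 and 4621 for KO. Both sets of libraries overlapped through most of their range. The limma log2 fold changes were 0.11 (SE 0.31) for Bmpr1a and 0.13 (SE 0.26) for Bmpr2, each with an adjusted p of 0.999. The sign of each turned when 1 of certain libraries was left out, with ranges from -0.14 to 0.32 and from -0.06 to 0.31.

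Eng, which encodes endoglin, a co-receptor for BMP9, BMP10 and transforming growth factor beta best known from endothelium, varied more between WT cultures than any other member. It lies on chromosome 2 from 32646595 to 32682669 and gave 15818, 3315 and 134 scaled reads in WT cultures 1, 2 and 3. The KO cultures gave 7171, 8863 and 15103. The highest WT library was 118 times the lowest, against 2.11 times within KO. A spread at least as wide among WT libraries was seen for 0.284% of the 12340 tested genes with all WT values above 0, 35 genes in number.

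The limma log2 fold change of Eng was 2.36 (SE 1.62) at an adjusted p of 0.999, and it was 0.45 without WT replicate 3 and 0.14 without both replicate 3 libraries. Pair differences were -1.14, 1.42 and 6.79. The endothelial gene Kdr (VEGF receptor 2) had 433, 141 and 42.7 scaled reads in WT and 105, 423 and 21.3 in KO. Egfl7, secreted by endothelium, had 28.4, 61.9 and 52.2 in WT and 10.7, 40.5 and 285 in KO. Kdr was highest in WT replicate 1, as Eng was, and lowest of all in KO replicate 3, where Eng was high. Egfl7, in contrast, was highest of all in KO replicate 3. The part of endothelial cells in the Eng values was not tested. Reads on 61 exon bases that Eng shares with the opposite-strand gene Fpgs are uncertain, since whether counting used the strand is not known, and the same holds for the 89 bases of Bmp4 and 290 bases of Bmpr1a that opposite-strand predicted genes share.

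The window before the start of Eng is shown for the member that spanned the widest range. It covers chr2:32646345-32646594 of GRCm38.p6 on the plus strand, outside annotated exons, with the same letters in capitals.
Eng: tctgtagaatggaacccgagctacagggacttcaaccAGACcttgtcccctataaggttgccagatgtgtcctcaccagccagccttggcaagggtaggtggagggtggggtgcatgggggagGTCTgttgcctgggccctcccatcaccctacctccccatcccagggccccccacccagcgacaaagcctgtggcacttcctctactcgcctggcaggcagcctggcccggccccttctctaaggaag
It has matches of GTCT or AGAC at -213 and -127 and no GGCGCC.

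Of the other receptors and co-receptors, 8 of 11 were measured, with a median log2 fold change of -0.17. Rgma, a glycosylphosphatidylinositol-anchored BMP co-receptor, had 256, 565 and 594 scaled reads in WT and 920.1, 1455 and 1260.3 in KO. All KO libraries lay above all WT libraries, and the pair differences were 1.84, 1.36 and 1.08. Its log2 fold change was 1.43 (SE 0.37), with an adjusted p of 0.999 in limma and from 0.0895 to 1.0 over the settings run, the lowest with the replicate block and library weights. For Rgma the authors' deposited table gives 1.36 (log2 ratio, FDR 0.133). On the log2 scale Acvr2a, an activin type II receptor gene, differed by -0.35 (SE 0.25), the type III receptor gene Tgfbr3 by -0.23 (SE 0.28) and Acvr1, which encodes the type I receptor ALK2, by -0.18 (SE 0.22).

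The intracellular transducers lay close to 0. All 10 listed genes were measured, with log2 fold changes from -0.33 to 0.38 and a median of -0.03. Smad9, the least abundant of the BMP-activated SMADs by scaled reads here, averaged 498 ± 69.3 in WT against 681 ± 276 in KO (SD, n = 3), with a log2 fold change of 0.38 (SE 0.34). Skil, a nuclear repressor of SMADs, had 0.29 (SE 0.24), the ubiquitin ligase gene Smurf2 -0.25 (SE 0.23) and the ubiquitin-conjugating enzyme gene Ube2o -0.33 (SE 0.29). None of the 10 had an unadjusted p under 0.05.

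**Figure D3:**
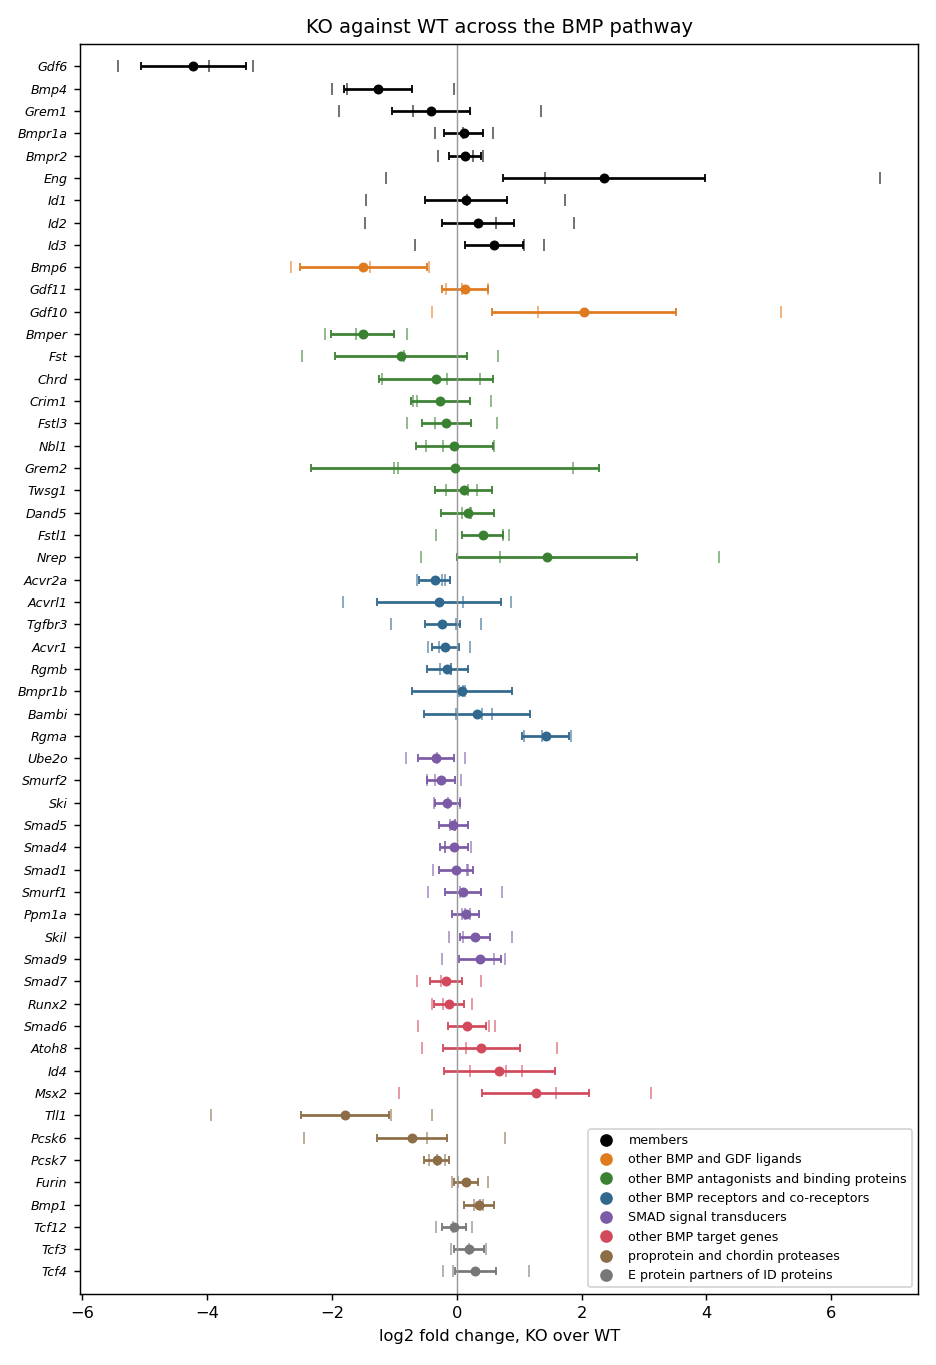
Log2 fold change, KO over WT, of the 9 members and 46 other tested pathway genes. Points are limma estimates, bars are 1 SE and ticks are the differences within the 3 same-numbered pairs. Gdf6 lies farthest from 0, at -4.22, and SMAD transducers lie between -0.33 and 0.38.

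The 3 ID genes, direct BMP-SMAD targets whose products bind E proteins and block their DNA binding, were each somewhat higher in KO on average but overlapped between the groups. Scaled reads of Id1 (chromosome 2, 152736251 to 152737410) in cultures 1, 2 and 3 were 1687, 1499 and 445 for WT and 1892, 543 and 1491 for KO. Those of Id2 (chromosome 12, 25093799 to 25097140) were 360.4, 639.6 and 260.3 for WT and 557, 229 and 963 for KO. For Id3 (chromosome 4, 136143497 to 136145755) they were 1124, 2099 and 2002 for WT and 2978, 1319.9 and 4227 for KO. KO replicate 2 was the lowest KO library for all 3 genes, and WT replicate 3 the lowest WT library for Id1 and Id2 but not for Id3.

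The limma log2 fold changes were 0.15 (SE 0.66) for Id1, 0.34 (SE 0.57) for Id2 and 0.60 (SE 0.46) for Id3, each with an adjusted p of 0.999. For each gene the pair 2 difference was below 0 (-1.46, -1.47 and -0.67) and those of pairs 1 and 3 above it (0.17 and 1.74 for Id1, 0.63 and 1.88 for Id2, 1.40 and 1.08 for Id3). Id1 was lower in KO, at -0.65, once both replicate 3 libraries were left out, and Id2 at -0.42, while Id3 stayed above 0 at 0.37.

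Id1, Id2 and Id3 shared their lowest KO library with several other BMP targets, but Id1 was highest in KO replicate 1 and Id2 and Id3 in KO replicate 3. Over 10 tested targets (Id1 to Id4, Smad6, Smad7, Msx2, Atoh8, Runx2 and Bambi), KO replicate 2 was the lowest KO library for 7, where it was for 28.9% of all tested genes. In 6 of the 10 it was lowest with KO replicate 3 highest, against 18.3% of all genes, and 9 of 10 lay below WT in pair 2 and above it in pair 3, against 23.0%. The count of 9 rests on signs alone. Pair 2 differences nearest 0 among them were -0.01 for Bambi, -0.22 for Runx2 and -0.25 for Smad7. These orders were noticed after the values were seen, and the genes share their libraries. One of them was Atoh8, a BMP-induced transcription factor gene, with 1393, 595 and 3654 scaled reads in KO replicates 1 to 3 and 1261, 879 and 1203 in WT. Msx2, a homeobox gene linked to vascular calcification, had 148, 52.0 and 214 in KO and 47.4, 100.4 and 22.9 in WT.

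**Figure D4:**
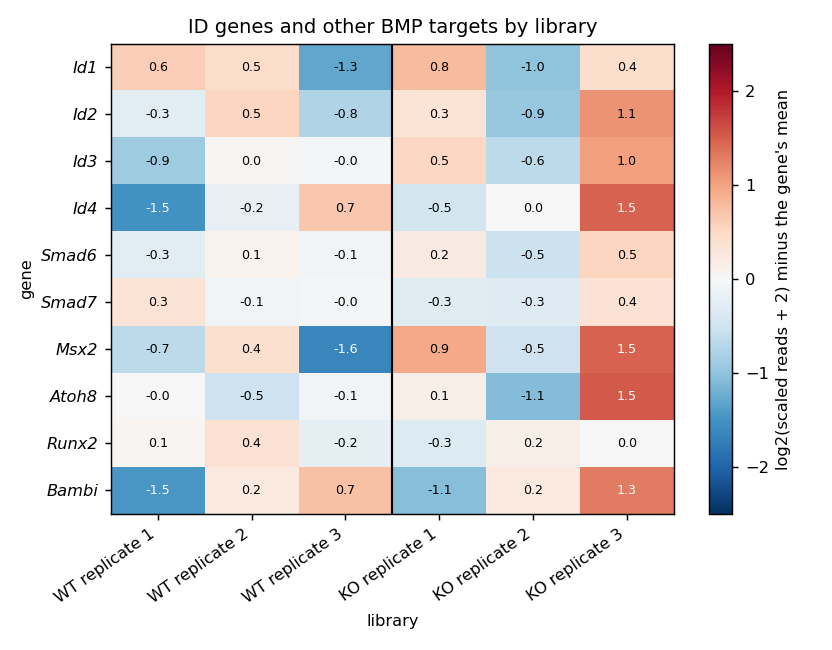
ID genes and other BMP targets in each library, as log2(scaled reads + 2) minus the mean of the gene over the 6 libraries. Red is above and blue below that mean, and the line parts WT from KO. KO replicate 2 is the lowest KO library for 7 of 10 genes and KO replicate 3 the highest for 8.

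Of 13 targets listed outside the members, 8 were measured and 7 were tested after the filter. None of the 7 tested targets outside the members passed, and their median log2 fold change was 0.32. Msx2 had 1.26 (SE 0.86), Id4 0.69 (SE 0.89), Atoh8 0.39 (SE 0.62) and Smad7, an inhibitory SMAD gene, -0.17 (SE 0.25). The E protein genes, whose products pair with the ID proteins, had 0.29 (SE 0.33) for Tcf4, 0.19 (SE 0.24) for Tcf3 and -0.05 (SE 0.19) for Tcf12.

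Id2 is one of 4 members, with Grem1, Bmpr1a and Bmpr2, whose 250 bases before the RefSeq start hold GGCGCC on either strand (the letters read the same on both). The 7 members with a RefSeq window were searched, and those of Gdf6, Bmp2 and Id1 were not. The sites are shown with neighbouring bases so that their contexts can be compared, 5′ to 3′ on the strand of the gene, with the 6 letters in capitals.
Id2: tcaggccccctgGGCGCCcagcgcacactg
Grem1: cgcggcggcgacGGCGCCtgaccaatggag
Bmpr1a: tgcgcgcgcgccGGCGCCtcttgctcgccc
Bmpr2: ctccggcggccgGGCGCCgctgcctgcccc
They lie at chr12:25096306-25096335 (minus strand), chr2:113758709-113758738 (minus), chr14:34502727-34502756 (minus) and chr1:59764162-59764191 (plus) of GRCm38.p6. GENCODE exons cover 161 bases of the Id2 window, 141 of the Bmpr1a window, all 250 of the Bmpr2 window and 0 of the Grem1 window. All 30 bases printed for Bmpr2 lie in an annotated exon of that gene, and those printed for the other 3 genes lie in none. The windows of Id2, Bmpr1a and Bmpr2 nevertheless lie inside the gene bounds given above, and only that of Grem1 lies outside its gene. The letters occur in 9.59% of all windows and in 26.1% of the 9178 windows with at least 60% G and C, while the 7 windows searched had 62.4% to 78.8%. GGCGCC followed by GTCT after a spacer of 5 bases, a composite that SMAD complexes bind, was in none of the 7 and in 0.07% of all windows. A match is only a match of letters. The log2 fold changes of the 4 genes were 0.34, -0.41, 0.11 and 0.13 in the order printed.

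Proteases that act on the ligands or on chordin were measured for 5 of 7 listed genes. Tll1, a tolloid-like protease that cleaves chordin, had 5274, 4177 and 7689 scaled reads in WT and 2539, 3164 and 502 in KO, with no overlap of the genotypes. Its log2 fold change was -1.80 (SE 0.70), and -0.96 without KO replicate 3. Bmp1, the related procollagen C-proteinase, averaged 12005 ± 2187 in WT against 15315 ± 2206 in KO (SD, n = 3). The proprotein convertase genes Pcsk6 and Pcsk7 had log2 fold changes of -0.72 (SE 0.57) and -0.32 (SE 0.20). All 4 had an adjusted p of 0.999.

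Over the members as a whole, 0 of 9 passed an adjusted p of 0.05 in limma, where 0.00% of the 12363 tested genes did. At an unadjusted p under 0.05 there was 1 member, Gdf6, against 3.62% of all genes. The genotypes did not overlap for 1 of the 9, against 8.43% of all genes. This was Gdf6, with every KO library under every WT library, as for 4.51% of all genes, and 0 members had the opposite order, against 3.91%. The median log2 fold change of the members was 0.13 with 3 of 9 below 0, beside 0.00 and 49.6% for all genes tested. KO was lower in all 3 pairs for 2 members, Gdf6 and Bmp4, against 15.0% of all genes, and higher in all 3 for 0, against 15.7%. Because the members were listed with results known, none of these shares is evidence about the set.

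Of the 46 other tested pathway genes, 0 passed. An unadjusted p under 0.05 was found for 3, namely Rgma (higher in KO) and Bmper and Tll1 (lower), against 3.62% of all genes. The genotypes did not overlap for the same 3, against 8.43% of all genes. The median log2 fold change of the 46 was -0.03, with 25 (54.3%) below 0, beside 0.00 and 49.6% for all genes tested. For 3 against 3 libraries an exact two-sided permutation test cannot give a p below 0.1, which is the value for Gdf6.

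By level per kilobase, the order of the members in WT was Grem1 (28060 ± 22910, SD, n = 3), Eng (1587 ± 2048), Id1 (1043 ± 577), Bmp4 (1021 ± 595), Id3 (972 ± 300), Bmpr1a (838 ± 257), Gdf6 (493 ± 282), Bmpr2 (283 ± 71.4) and Id2 (172 ± 80.6). In KO it was Grem1 (17350 ± 6455, SD, n = 3), Eng (2564 ± 1032), Id3 (1587 ± 814), Id1 (1128 ± 597), Bmpr1a (895 ± 244), Bmp4 (355 ± 30.9), Bmpr2 (306 ± 57.2), Id2 (239 ± 151) and Gdf6 (34.4 ± 38.9). Below Grem1, neighbours in the WT order overlapped between their libraries. In KO, Bmpr1a and Bmp4, and Id2 and Gdf6, were neighbours that did not. Annotated exons of Bmpr2 cover 17983 bases, retained introns included, so its level per kilobase may be understated.

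WT replicate 3 was the lowest WT library for 7 of the 9 members, all but Bmpr1a and Id3, where it was lowest for 39.1% of all tested genes. It was also the library with the highest smooth muscle marker sum. The part of that state in the member values was not tested, and each fold change without a library in turn is shown as a range.

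**Figure D5:**
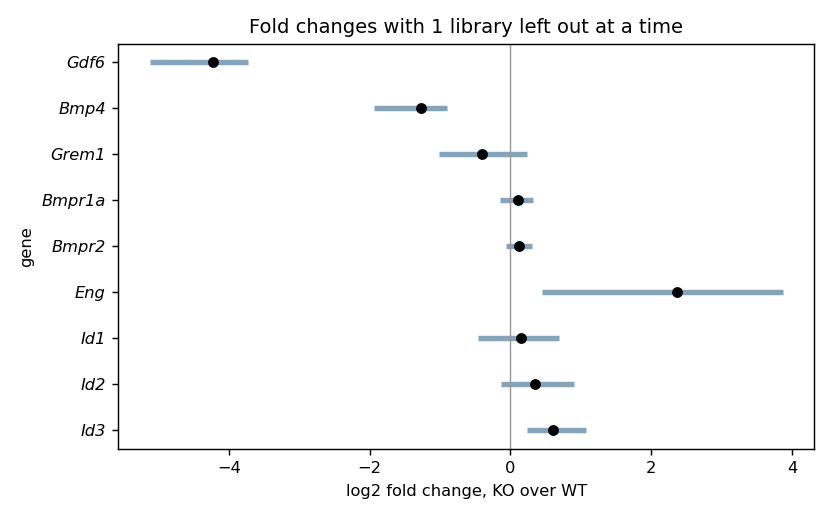
Range of the limma log2 fold change, KO over WT, of each member when each of the 6 libraries was left out in turn (bars), with the value from all 6 (points). Gdf6 stays between -5.12 and -3.73 and Bmp4 between -1.94 and -0.91, and the ranges of Grem1, Bmpr1a, Bmpr2, Id1 and Id2 cross 0.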

How the data were processed

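Strand-specific poly(A) libraries of 3 WT and 3 KO cultures were read from both ends, per the labels' protocols. The submitters' processing notes name STAR and Partek, with no version or role, and the build GRCm39 (mm39). The coordinates in the deposited table match GRCm38 (12341 of 12385 starts equal those of GENCODE M21). The deposited per-library values are a scaled signal, not raw counts: 1 read was worth 0.712 to 1.186, and only 82.4% to 92.4% of the values up to 50 reads came within 0.05 of being whole, so whole reads were not recovered. The authors' deposited table gives a p-value, step-up FDR (a q-value), ratio (fold) and log2 ratio for KO over WT, per the file headers.

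Here limma 3.58.1 (R 4.3.3, statmod 1.5.0) was fitted to log2(value + 2) with genotype alone, trended robust variances and Benjamini-Hochberg adjustment over the 12363 genes with at least 10 in 3 or more libraries. All p-values are two-sided, and those of limma set the difference between genotypes against the spread between cultures of a genotype. Median residual SD on the log2 scale was 0.36, and 0.26 in the alternative fit with a term for replicate number (the replicate block). Same-numbered libraries' deviations correlated at 0.433, 0.151 and 0.389 across genes, so differences within same-numbered pairs are printed as values. The genotype-only fit, with its SEs and p-values, leaves this pairing out. The labels do not say what the numbers stand for. Levels per kilobase use the union of GENCODE M21 exons. Promoters are RefSeq windows (GRCm38.p6), read from 250 bases before the start.

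The members and gene lists were chosen with earlier results of these data known. Named genes are all members, up to 4 per pathway list with the smallest p, and the 3 highest per marker list. Genes outside that rule are named where a count turns on them. The alternatives tried were TMM and total scaling, pseudocounts of 1 and 10, no filter or a minimum of 50, the other per-library table, limma-voom, simpler priors, library weights, the replicate block and leaving out libraries. Removing pair 3 was added after the values were seen.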

Additional observations from a re-analysis of the deposited data

How the results depend on the processing

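Across 19 alternatives 0 members and 0 of the other named pathway genes passed an adjusted p of 0.05, and among the members the sign of Gdf6, Bmp4 and Eng held in each. Without library weights no gene passed in either direction, except 1 lower gene without KO replicate 1 (0 to 1 lower and 0 higher over the left-out libraries). The replicate block changed no call; it raised the genes at an unadjusted p under 0.05 from 447 to 917, and Gdf6 had a blocked adjusted p of 0.209. Library quality weights gave 6 higher and 24 lower genes, and with the replicate block 1 and 4. With the weights the limma adjusted p was 0.0757 for Gdf6 and 0.103 for Bmp4, and with weights and block 0.0895 and 0.201. These weights, without the block, were 7.99 for WT replicate 2 and 0.361 to 1.97 for the others, so the weighted WT mean rests largely on 1 library. Among the KO libraries replicate 2 had the largest of these weights, 1.97, beside 0.949 and 0.361 for replicates 1 and 3. Under them the log2 fold change turned to -0.0507 for Bmpr1a, -0.72 for Id1, -0.78 for Id2, -0.0912 for Id3, -0.20 for Gdf10, -0.36 for Gdf11, -0.0483 for Nrep, 0.10 for Tgfbr3, -0.13 for Msx2 and -0.0622 for Tcf4. Lrrc8a then passed (adjusted p = 0.045), and its adjusted p was 0.0562 with the block. With the block and weights Id1 turned to -0.62, Id2 to -0.50, Gdf11 to -0.0168 and Atoh8 to -0.0872. With pair 3 removed Id1 turned to -0.65, Id2 to -0.42, Gdf11 to -0.0469, Skil to -0.00903, Atoh8 to -0.21 and Tcf4 to -0.14. Leaving out 1 library at a time turned the sign of Grem1 (-1.01 to 0.23), Bmpr1a (-0.14 to 0.32), Bmpr2 (-0.0564 to 0.31), Id1 (-0.46 to 0.69), Id2 (-0.13 to 0.90), Gdf11 (-0.0784 to 0.49), Fst (-1.69 to 0.0939), Atoh8 (-0.27 to 1.03), Tcf4 (-0.0723 to 0.49), Tcf3 (-0.0277 to 0.33) and Tcf12 (-0.14 to 0.0684). The cause of these turns was not tested. The members' median ran from -0.06 to 0.32 over left-out libraries and from -0.72 to 0.16 over the others. No scaling moved the median of all genes by over 0.1. Gdf6 in KO rested on 34.0 to 262 estimated reads, and the part of depth in its values was not tested.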
